A study of Mus musculus with 3 samples.

Results

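Chemokine transcripts were followed in lymphocytes sorted from mouse lung, for 8 genes among the 32285 measured: Ccl1, Ccl3, Ccl4, Ccl5, Xcl1, Cxcl2, Cxcl10 and Cx3cl1. The genes were chosen by symbol, with earlier results of these data known, and all 8 were found in each of the 3 single-cell libraries. The animals were GFI1B-GFP reporter mice, in which green fluorescence marks use of the gene of the zinc finger repressor GFI1B. Cells of perfused, enzyme-digested lungs had been sorted as live, CD45+, lineage negative, CD90.2+ and IL-7R+, a gate used for innate lymphoid cells (ILC). The first library, here the pool, combined cells that were IL-18R+ CD103+ GFP- with cells that were IL-18R+ CD103- GFP+, and the files do not say which cell is which. The second was labelled IL-18R- CD103- GFP- and is called the CD103- GFP- library here. The third, here the ST2+ library, was labelled IL-18R- ST2+, ST2 being the interleukin 33 receptor encoded by Il1rl1. Each group was 1 library, so no difference between groups has a replicate check, no test was run, and every interval given is a 95% interval of counting error only. The labels used here give no age, sex, treatment or number of animals.

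Chemokines are small secreted proteins that bind receptors on other cells and direct their movement. In tissue, CC chemokines such as Ccl3, Ccl4 and Ccl5 draw monocytes and effector T cells, Xcl1 draws cross-presenting dendritic cells, and Cxcl2 draws neutrophils. Natural killer (NK) cells and effector T cells are known sources of Ccl5 and Xcl1, while group 2 innate lymphoid cells (ILC2) are best known for the cytokines Il5 and Il13. Many chemokine genes are under the control of NF-kB and are switched on within minutes of a stimulus.

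After filtering and removal of called doublets, 1655, 1872 and 1611 cells were kept in the pool, the CD103- GFP- library and the ST2+ library, with medians of 4930, 4768 and 4568 unique transcript counts (UMIs) per cell. A total of 1 barcode was shared by 2 libraries. Il1rl1 had a UMI in 1.21%, 1.18% and 93.1% of their cells, and Itgae, which encodes CD103, in 33.8%, 1.39% and 0.993%. Il18r1 was seen in 86.7%, 86.2% and 5.90% of cells, so the CD103- GFP- library went against its label at the transcript level. Gfi1b had 0 UMIs in all 3. That allows up to 0.181%, 0.160% and 0.186% of cells with a UMI at these depths and sets no limit on the share of cells that use the gene, so the GFP sorts could not be checked by it. Cells were placed in 12 gates by marker UMIs, 8 of them lymphoid, and a gate was read where it held at least 20 cells. The gamma delta T gate (CD3 genes with Trdc above Trac) held 885, 1463 and 18 cells and the alpha beta T gate 232, 110 and 18. The ILC2 gate (Il1rl1, without CD3 genes) held 15, 12 and 1250 cells. The remaining lymphoid gates were ILC1 and NK cells (Ncr1, Tbx21 or Eomes), ILC3 (by ILC3 genes, among them Il23r and Il22), cells with both Tcf7 and Il18r1, and cells left unassigned with or without CD3 genes. A Lyz2 gate (at least 3 Lyz2 UMIs, myeloid) held 35, 8 and 6 cells and a Cldn5 gate (at least 1 Cldn5 UMI, endothelial) 71, 21 and 10.

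Levels were summed per library and given as UMIs per 1000000 library UMIs (UPM). Ccl1 and Cxcl2 were the leading members in the ST2+ library and Ccl5 in the CD103- GFP- library. The level of Ccl1, the ligand of Ccr8, was 0.112 UPM in the pool (1 UMI), 2.92 UPM (interval 1.94 to 4.22) in the CD103- GFP- library and 1045 UPM (1022 to 1068) in the ST2+ library. Cxcl2, a neutrophil attractant that binds Cxcr2, stood at 167 UPM (159 to 176), 88.1 UPM (82.3 to 94.3) and 1218 UPM (1193 to 1242) in the same order. Ccl5 stood at 243 UPM (233 to 253), 2284 UPM (2254 to 2314) and 69.4 UPM (63.7 to 75.5). Thus the ST2+ library was the highest for Ccl1 and Cxcl2 and the lowest for Ccl5. Xcl1, the ligand of Xcr1, was at 25.5 UPM (22.3 to 29.1), 66.3 UPM (61.2 to 71.6) and 1.14 UPM (9 UMIs). Ccl4 followed with 13.7 UPM (11.4 to 16.4), 23.9 UPM (20.9 to 27.2) and 1 UMI. Cxcl10, an interferon-inducible ligand of Cxcr3, was nearly even at 90.3 UPM (84.2 to 96.7), 74.0 UPM (68.6 to 79.6) and 80.0 UPM (73.8 to 86.4). Ccl3 and Cx3cl1 were rare throughout: Ccl3 had 58, 23 and 36 UMIs, and Cx3cl1, a membrane-bound chemokine that binds Cx3cr1, had 15, 58 and 14. The 8 genes together took 548, 2547 and 2419 of every 1000000 UMIs.

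**Figure D1:**
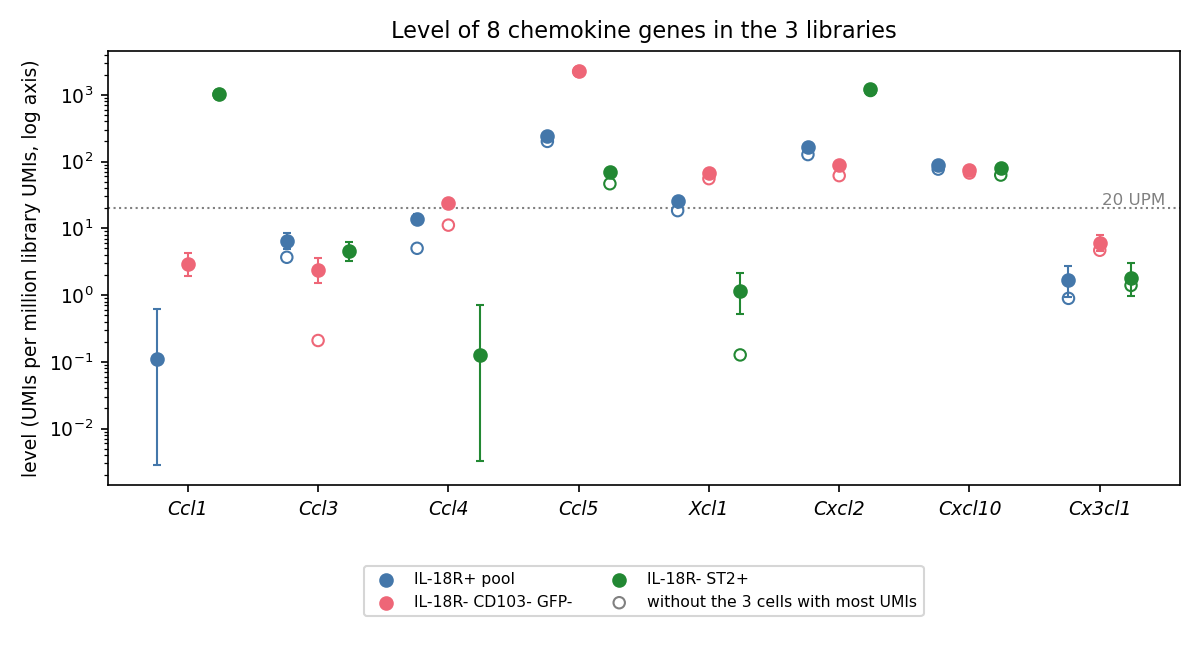
Level of each chemokine gene in the IL-18R+ pool, the CD103- GFP- library and the ST2+ library, as UMIs per 1000000 library UMIs on a log axis. Filled points are library sums with 95% counting intervals, open points the same sums without the 3 cells with most UMIs, and the dotted line is 20 UPM. Ccl1 and Cxcl2 lie at 1045 and 1218 UPM in the ST2+ library and Ccl5 at 2284 UPM in the CD103- GFP- library, while Cxcl10 lies between 74.0 and 90.3 UPM in all 3.

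How evenly the transcripts were spread over cells differed between members. Ccl1 was seen in 782 of 1611 cells of the ST2+ library (48.5%, interval 46.1 to 51.0), and the 3 cells with most held 3.25% of its UMIs. Cxcl2 was seen in 759 of those cells (47.1%, 44.7 to 49.6), with 4.73% of UMIs in the top 3. Both were graded: 261 cells with at least 10 Ccl1 UMIs held 80.2% of that gene's UMIs, and 303 cells with at least 10 Cxcl2 UMIs held 83.7%. Ccl5 was close to all or none in the CD103- GFP- library, where 432 of 1872 cells had it (23.1%, 21.2 to 25.1) at a median of 51 UMIs. The top 3 cells of that library held 2.22% of Ccl5 UMIs. Sums of the rare members rested on few cells. The top 3 cells held 63.4% of Ccl4 UMIs in the pool and 53.3% in the CD103- GFP- library, and without them Ccl4 fell to 5.02 UPM and 11.1 UPM. For Ccl3 the top 3 held 43.1% in the pool and 91.3% in the CD103- GFP- library, and in the ST2+ library 2 cells held all 36 UMIs. Ccl1 in the CD103- GFP- library came from 3 cells, 1 of which held 20 of the 28 UMIs.

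Between libraries, among members measured in a pair, Ccl1, Cxcl2, Ccl5 and Xcl1 were past 2-fold in more than 1 pair, and Ccl4 in 1. A gene counted as measured in a pair where either library reached 20 UPM, and as different where the levels lay at least 2-fold apart. Ccl4 had 123 UMIs in the pool against 1 in the ST2+ library, but reached 20 UPM in neither and was not counted. For the pool over the CD103- GFP- library, 2 of 5 measured members were past 2-fold, against 3.34% of the 5812 genes measured (2.55% higher in the pool and 0.791% lower). Both were lower in the pool: Ccl5 by a log2 ratio of -3.23, or 9.41-fold (9.0 to 9.83), and Xcl1 by -1.38, or 2.60-fold (2.23 to 3.03). Cxcl2 had a log2 ratio of 0.92, Cxcl10 of 0.29 and Ccl4 of -0.80, none past 2-fold. For the pool over the ST2+ library, 4 of 5 measured members were past 2-fold, against 16.7% of 5930 genes (12.3% higher in the pool and 4.33% lower). Ccl5 was higher in the pool by a log2 ratio of 1.81, or 3.50-fold (3.18 to 3.85), and Xcl1 by 4.48, or 22.4-fold (11.6 to 49.6). Cxcl2 was lower by a log2 ratio of -2.87, or 7.29-fold (6.90 to 7.70), and Ccl1, with 1 UMI in the pool, was lower with a counting interval of 1682-fold to 370213-fold. The CD103- GFP- library over the ST2+ library had 5 of 6 measured members past 2-fold, against 15% of 5736 genes (9.57% higher in the CD103- GFP- library and 5.4% lower). Higher there were Ccl5 at a log2 ratio of 5.04, or 32.9-fold (30.2 to 35.9), Xcl1 at 5.86, or 58.1-fold (30.4 to 127.6), and Ccl4, against 1 UMI, with an interval of 33.5-fold to 7469-fold. Lower were Ccl1 at -8.48, or 358-fold (248 to 539), and Cxcl2 at -3.79, or 13.8-fold (12.9 to 14.8). The 3 pairs share libraries, so their counts are not independent. The groups were cut by surface markers that also set which cell types each library holds. The members were chosen with earlier results of these data known, so these counts are no independent measure against all genes. Scaling by edgeR's TMM moved all log2 ratios of the 3 pairs, in the order given, by -0.14, -0.28 and -0.15, and scaling by the median of ratios by -0.15, -0.32 and -0.17. No member crossed 2-fold under either, but Cxcl10 in the pool over the ST2+ library changed sign, with log2 ratios of 0.18 by library totals, -0.11 by TMM and -0.14 by the median of ratios. Fewer cells of a type and less RNA per cell cannot be told apart in these library sums, so the members are given by gate next.

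**Figure D2:**
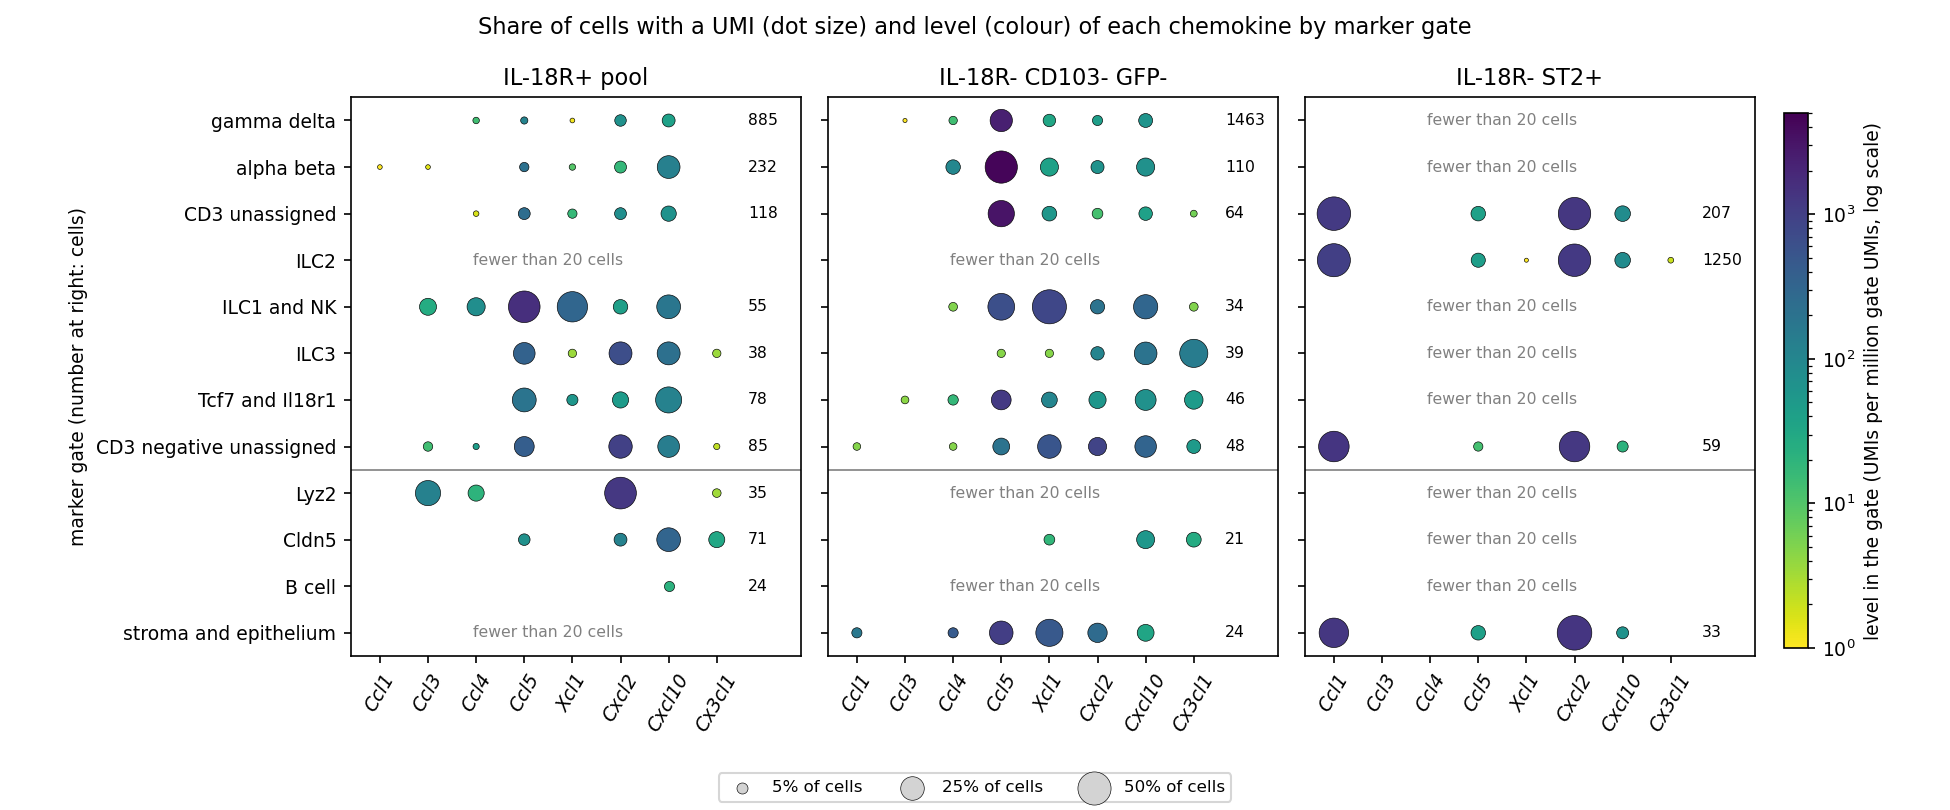
Share of cells with a UMI (dot area) and level within the gate (colour, UMIs per 1000000 gate UMIs, log scale) of each chemokine in each marker gate, for the IL-18R+ pool, the CD103- GFP- library and the ST2+ library. Gates under 20 cells are not read, and the grey line parts the 8 lymphoid gates from the others. Ccl1 and Cxcl2 fill the gates of the ST2+ library (49.8% and 47.9% of ILC2 gate cells), Ccl5 the T cell gates of the CD103- GFP- library, and Xcl1 is highest in the ILC1 and NK gates.

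Ccl1 and Cxcl2 were seen in many cells of the ILC2 gate, which made up most of the ST2+ library. Ccl1 had a UMI in 622 of 1250 of them in the ST2+ library (49.8%, 47.0 to 52.6) at 1042 UPM of gate UMIs. The gate held 76.4% of the library's Ccl1 UMIs and 77.6% of its cells, so neither the share nor the level set it apart from the library as a whole. Cxcl2 had a UMI in 599 of the 1250 (47.9%, 45.1 to 50.7) at 1210 UPM. These ILC2 gate cells had UMIs of all 8 ILC2 check genes that the gate did not use, among them Gata3, Il5, Il13 and Areg, with a summed level of 5165 UPM. That list was at 1104 UPM in the gamma delta gate of the pool and 1025 UPM in that of the CD103- GFP- library, although 95.8% and 89.8% of those cells also had at least 1 of its UMIs. With every cell thinned to 2000 UMIs, the shares were 38.8% for Ccl1 and 40.8% for Cxcl2. A further 207 cells carried CD3 UMIs without a T cell receptor call, and their shares were like those of the ILC2 gate at 51.2% for Ccl1 and 47.8% for Cxcl2. Of those 207 cells, 204 had a Cd3g UMI, 25 a Cd3e UMI, 7 a Cd3d UMI and 198 an Il1rl1 UMI. The stroma and epithelium gate of that library behaved the same way, with Ccl1 in 13 and Cxcl2 in 18 of 33 cells, and all 33 were placed there by Epcam while 0 of 6 further stromal and epithelial genes had a UMI. None of the Lyz2, Cldn5 and B cell gates held 20 cells in this library. Ccl1 had 1 UMI over the 10 Cldn5 gate cells and 3 UMIs over the 7 B cell gate cells, at median depths of 3577 and 3077 UMIs against 4577 in the ILC2 gate.

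Within the ILC2 gate, Cxcl2 was seen more often in cells with Ccl1 than in cells without, and each transcript was also seen alone. Cxcl2 was seen in 342 of the 622 cells with Ccl1 (55.0%, 51.0 to 58.9) and in 40.9% (37.1 to 44.9) of the 628 without, at median depths of 4664 and 4478 UMIs. Thinning gave 49.7% and 35.1%. Neither transcript was seen in 371 cells, so the gate held cells with both, with Ccl1 alone, with Cxcl2 alone and with none. Il13 was seen in 147 of the 622 cells with Ccl1 (23.6%) and in 67 of the 628 without (10.7%), and Il5 in 145 (23.3%) and 109 (17.4%). Il5, the eosinophil growth factor, was seen in 158 of the 599 cells with Cxcl2 (26.4%) and in 96 of the 651 without (14.7%), and Il13 in 123 (20.5%) and 91 (14.0%). Klrg1, a surface receptor of mature ILC2, was seen in 284 of the cells with Ccl1 (45.7%) and in 306 of those without (48.7%).

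**Figure D3:**
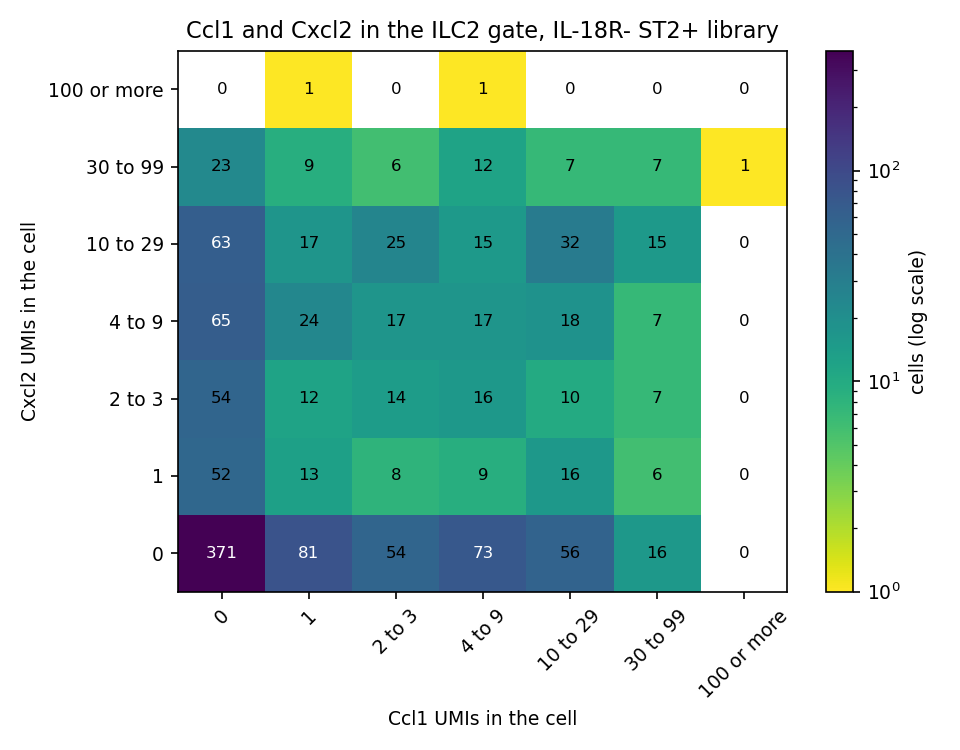
Number of ILC2 gate cells of the ST2+ library by their Ccl1 UMIs (horizontal axis, binned) and Cxcl2 UMIs (vertical axis, binned), with the colour on a log scale. The fullest bin is the 371 cells with 0 UMIs of both, and 342 cells hold both transcripts.

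The genes most like Ccl1 over the 1611 cells of the ST2+ library, by Pearson's r of log values, were Egr3 (r = 0.30), Nr4a2 (0.25) and Nfkbiz (0.25). For Cxcl2 in the same cells they were Areg (0.27), Nfkbia (0.24) and Nr4a1 (0.24). Egr3, Nr4a1 and Nr4a2 encode transcription factors induced early after stimulation, Nfkbia and Nfkbiz encode regulators of NF-kB, and Areg encodes the growth factor amphiregulin. The values are low and come from cells of 1 library that share its depth. The summed level of 14 immediate early genes, which tissue digestion can also induce, was 11809 UPM in the pool, 10263 UPM in the CD103- GFP- library and 15986 UPM in the ST2+ library, the one with most Ccl1 and Cxcl2. Inside the ILC2 gate it was 16695 UPM in cells with Ccl1 and 16241 UPM in cells without, with 7 of 14 genes higher in cells with Ccl1. It was 17229 UPM in cells with Cxcl2 and 15698 UPM in cells without, with 10 of 14 higher in cells with Cxcl2. The part of these genes in the chemokine levels was not tested.

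The start regions of Ccl1 and Cxcl2, with that of Cxcl10, are shown because each holds the NF-kB consensus, a stretch of letters that the NF-kB proteins are known to bind. Ccl1 lies on chromosome 11 at chr11:82176657-82305690 (minus strand), Cxcl2 on chromosome 5 at chr5:90903871-90905938 (plus strand) and Cxcl10 on chromosome 5 at chr5:92346638-92348889 (minus strand), in GENCODE M21 on GRCm38. The stretches are the bases before the start in RefSeq's table of GRCm38.p6, without any bases that GENCODE M21 places in an exon, 5′ to 3′ on the gene's own strand: chr11:82179813-82180062 for Ccl1, chr5:90903649-90903870 for Cxcl2 and chr5:92348890-92349139 for Cxcl10. The Ccl1 stretch lies inside the annotated span of the gene but in no exon. Capitals mark the consensus.
Ccl1: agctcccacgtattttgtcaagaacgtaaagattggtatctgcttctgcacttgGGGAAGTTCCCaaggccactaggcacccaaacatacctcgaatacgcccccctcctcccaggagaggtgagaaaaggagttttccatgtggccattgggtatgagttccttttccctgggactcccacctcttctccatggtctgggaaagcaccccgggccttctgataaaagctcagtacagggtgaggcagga
Cxcl2: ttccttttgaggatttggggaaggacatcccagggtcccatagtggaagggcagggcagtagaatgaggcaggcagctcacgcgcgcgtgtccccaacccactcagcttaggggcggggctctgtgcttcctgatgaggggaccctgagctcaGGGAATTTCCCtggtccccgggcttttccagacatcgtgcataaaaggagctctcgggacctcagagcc
Cxcl10: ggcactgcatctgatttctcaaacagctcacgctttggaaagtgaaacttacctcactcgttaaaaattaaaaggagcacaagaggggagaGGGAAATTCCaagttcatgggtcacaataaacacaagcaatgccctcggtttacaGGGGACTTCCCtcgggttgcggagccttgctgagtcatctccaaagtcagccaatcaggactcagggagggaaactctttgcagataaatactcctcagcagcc
Counted from the start in RefSeq's table, the consensus began 196 bases before it in Ccl1, 97 in Cxcl2, and 159 and 104 in Cxcl10. For Cxcl2, GENCODE M21 places the last 28 bases before that start in an exon, and they are not printed. In Ccl1, Cxcl2 and the nearer Cxcl10 stretch the consensus read on both strands with overlap. The Cxcl10 stretch also held TGANTCA, the letters of the AP-1 motif, 74 to 68 bases before the start. Of the 6 members with an entry in the table, Ccl3, Xcl1 and Cx3cl1 held no NF-kB consensus in the 250 bases before the start. GENCODE M21 places 171 of these bases in an exon for Cx3cl1 and 43 for Xcl1, so less sequence before the gene was searched there. For Ccl3 the bases after the table's start were not found in a GENCODE M21 transcript of the gene. On either strand the consensus was in 7.25% of 32851 windows of that length, and TGANTCA in 6.75%. The motif was chosen after these sequences had been seen, and a match describes letters and not binding.

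Ccl5, a ligand of Ccr1 and Ccr3, was spread over several lymphoid gates in the pool, with the ILC1 and NK gate highest, and was mostly a T cell transcript in the CD103- GFP- library. The ILC1 and NK gate held 723 and the gamma delta gate 475 of the pool's Ccl5 UMIs. The gamma delta gate of the pool had it in 16 of 885 cells (1.81%, 1.04 to 2.92) at 111 UPM. The same gate of the CD103- GFP- library had it in 326 of 1463 cells (22.3%, 20.2 to 24.5) at 2341 UPM. The alpha beta gate had Ccl5 in 8 of 232 cells of the pool (3.45%, 1.50 to 6.68) and in 52 of 110 of the CD103- GFP- library (47.3%, 37.7 to 57.0). The intervals of the libraries lay apart in both T cell gates, the pool being lower. The ILC1 and NK gate of the pool had Ccl5 in 25 of 55 cells (45.5%, 32.0 to 59.5) at 1599 UPM. That of the CD103- GFP- library had it in 11 of 34 cells (32.4%, 17.4 to 50.5) at 655 UPM. Other innate gates of the pool had it too, with 20 of 78 Tcf7 and Il18r1 gate cells (25.6%, 16.4 to 36.8) and 8 of 38 ILC3 gate cells (21.1%, 9.55 to 37.3), although 3 cells held 88.8% of the UMIs of the ILC3 gate. The Cldn5 gate of the pool had it in 4 of 71 cells. Ccl5 was in 0 of 35 Lyz2 gate cells of the pool at a median depth of 8519 UMIs, which allows a share of up to 8.57%. It was in 1 of 39 ILC3 gate cells (2.56%, 0.0649 to 13.5) of the CD103- GFP- library at a median depth of 5062 UMIs, against 4721 in the gamma delta gate.

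The Ccl5 transcripts of T cells sat mostly in a subset with transcripts of the NK cell receptor gene Klrd1. The genes most like Ccl5 over the 1872 cells of the CD103- GFP- library were Ly6c2 (r = 0.89), Klrd1 (0.85) and Ms4a4b (0.81). Klrd1 encodes CD94, a partner of NKG2 receptors, and Ly6c2 encodes the surface protein Ly6C2 of memory T cells and monocytes. A split by a Klrd1 UMI, chosen after those values were seen, parted 16 Klrd1 positive gamma delta gate cells of the pool from 869 Klrd1 negative ones. Ccl5 was in 11 of the 16 (68.8%, 41.3 to 89.0) and in 5 of the 869 (0.575%, 0.187 to 1.34). In the CD103- GFP- library it was in 272 of 281 Klrd1 positive gamma delta gate cells (96.8%, 94.0 to 98.5) and in 54 of 1182 Klrd1 negative ones (4.57%, 3.45 to 5.92). Klrd1 positive cells held 98.7% of that gate's Ccl5 UMIs in the pool and 92.4% in the CD103- GFP- library. The alpha beta gate had Ccl5 in 5 of 12 Klrd1 positive cells of the pool and in 48 of 53 of the CD103- GFP- library (90.6%). Klrd1 positive cells were 1.81% of the gamma delta gate in the pool and 19.2% in the CD103- GFP- library. Among those of them with Ccl5, the median was 53 UMIs in the pool and 55 UMIs in the CD103- GFP- library. Klrd1 positive cells were also deeper, with medians of 6006 UMIs against 4689 in Klrd1 negative cells of the pool gate and 6745 against 4479 in the other library.

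**Figure D4:**
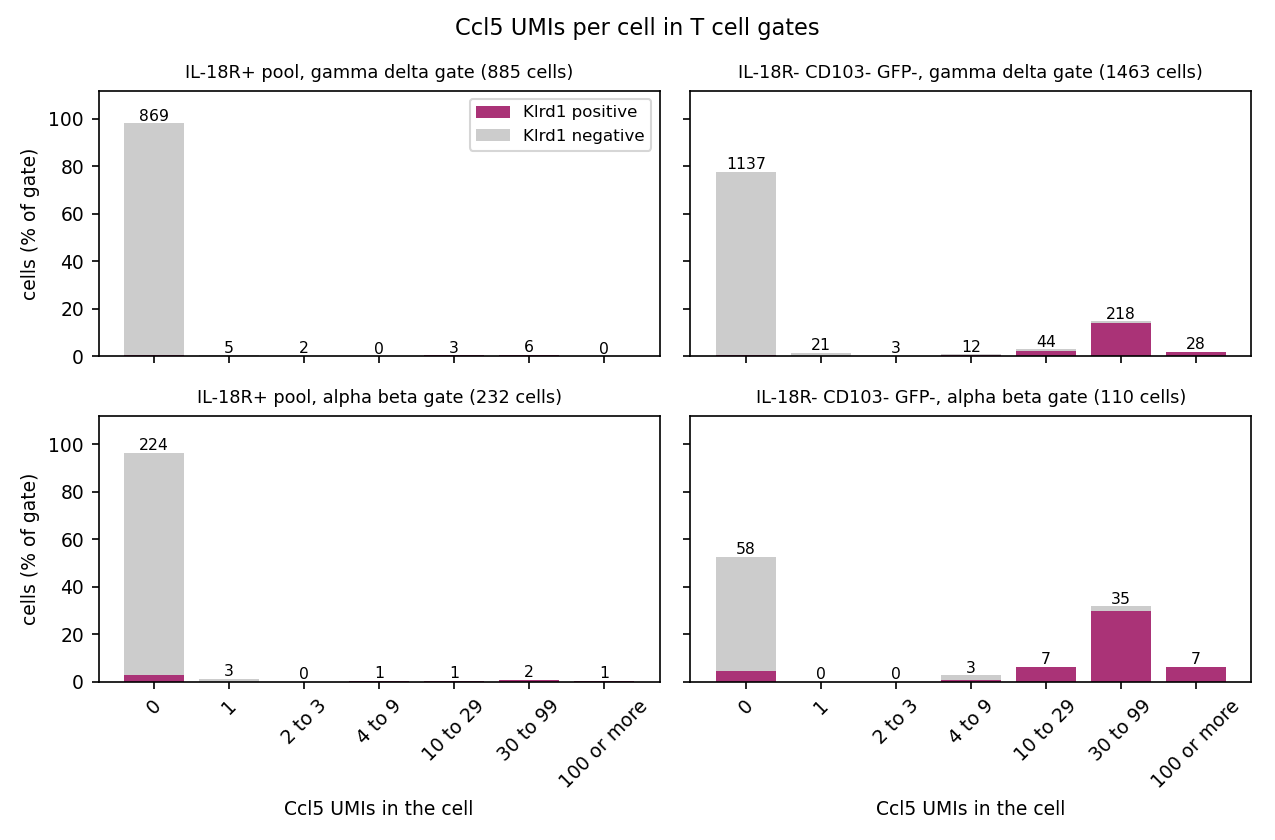
Ccl5 UMIs per cell (horizontal axis, binned) in the gamma delta gate (top) and alpha beta gate (bottom) of the IL-18R+ pool (left) and the CD103- GFP- library (right), as a share of gate cells on the vertical axis. Bars are split into Klrd1 positive and Klrd1 negative cells and numbers are cells. The gamma delta gate of the CD103- GFP- library has 1137 cells at 0 UMIs and 218 cells at 30 to 99 UMIs with few between, and the pool has 869 cells at 0 UMIs.

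Gamma delta gate cells with and without Ccl5 differed in transcripts of interleukin 17 producing gamma delta T cells. In the pool Il17a was seen in 3 of 16 gamma delta gate cells with Ccl5 and in 476 of 869 without (54.8%), and Ly6c2 in 11 and in 3. The CD103- GFP- library held the same contrast over more cells. There Il17a was seen in 10 of 326 cells with Ccl5 (3.07%) and in 479 of 1137 without (42.1%). Cd163l1, the gene of the scavenger receptor SCART1, was in 55 (16.9%) and 1055 (92.8%), and the T cell receptor gene segment Trdv4 in 39 (12%) and 1043 (91.7%). Ly6c2 ran the other way with 280 cells (85.9%) and 7 cells (0.616%). Trdv4 was not particular to T cell gates. In the ILC2 gate of the ST2+ library it was in 52 of 108 cells with Ccl5 and 501 of 1142 without. The immediate early list was lower beside Ccl5 in the gamma delta gate. It was 6266 UPM in cells with Ccl5 and 13900 UPM in those without in the pool, with 1 of 14 genes higher in cells with Ccl5. It was 4411 UPM and 12698 UPM in the CD103- GFP- library, with 0 of 14 higher.

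In the ST2+ library Ccl5 was thinly spread. It had a UMI in 108 of 1250 ILC2 gate cells (8.64%, 7.14 to 10.3) at 43.8 UPM. Of all 144 cells with Ccl5 in that library, 74 had 1 UMI, and the top 3 cells held 33.0%. Transcripts shed by the few T cells were set beside it as a measure of free RNA. The 16 T cell gate cells of that library without Il1rl1 had 225 Ccl5 UMIs and the ILC2 gate cells 265, a ratio of 1.18. The same ratio was 0.171 for Cd3d, 0.151 for Trdc, 0.0455 for Klrd1 and 0.0159 for Ms4a4b, and Ly6c2 had 50 UMIs in the T cells and 0 in the ILC2 gate. The gates were drawn by CD3 genes, so the Cd3d ratio was held low in advance and is no measure of free RNA. The T cell gates also used Trdc, which bears on its ratio. The ratio of Ccl5 was above those of Trdc, Klrd1 and Ms4a4b and close to that of Nkg7, which was 1.21. The part of free RNA in these Ccl5 UMIs was not tested further.

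Xcl1 was densest in the ILC1 and NK gate. It had a UMI in 23 of 55 such cells in the pool (41.8%, 28.7 to 55.9) at 310 UPM (260 to 365). That gate of the CD103- GFP- library had it in 18 of 34 (52.9%, 35.1 to 70.2) at 804 UPM (685 to 938). The shares overlapped within counting error and the levels did not. That gate held 61.1% of the pool's Xcl1 UMIs. In the CD103- GFP- library it held 162 of 636, fewer than the 237 of the much larger gamma delta gate. Only 61.8% of ILC1 and NK gate cells in the pool and 58.8% in the CD103- GFP- library had a UMI of any of 8 further ILC1 and NK genes. Klrd1, Gzma and Prf1 were among those 8. Ncr1, the NK receptor NKp46, was seen in 16 of 23 cells with Xcl1 and in 18 of 32 without in that gate of the pool. The Lyz2 gate of the pool had Xcl1 in 0 of 35 cells, and its ILC3 gate in 1 of 38 at a median depth of 6292 UMIs against 7229 in the ILC1 and NK gate.

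Xcl1 was also seen outside the ILC1 and NK gate. The unassigned gate without CD3 genes had it in 0 of 85 cells of the pool and in 12 of 48 of the CD103- GFP- library (25%, 13.6 to 39.6), at 528 UPM. Klrd1 was seen in 9 of those 12 cells (75%) and in 2 of the 36 others (5.56%). Cells of this gate had by definition no Ncr1, Tbx21 or Eomes UMI. T cell gates of the CD103- GFP- library had lower levels of Xcl1, at 32.2 UPM in the gamma delta gate and 38.1 UPM in the alpha beta gate. The gamma delta gate had it in 4 of 885 cells of the pool (0.452%, 0.123 to 1.15) and in 97 of 1463 of the CD103- GFP- library (6.63%, 5.41 to 8.03). The alpha beta gate had it in 3 of 232 cells of the pool (1.29%, 0.268 to 3.73) and in 16 of 110 of the CD103- GFP- library (14.5%, 8.55 to 22.5). Both pairs of intervals lay apart, the pool being lower. The Klrd1 split also sorted Xcl1. It was in 4 of 16 Klrd1 positive gamma delta gate cells of the pool and in 0 of 869 Klrd1 negative cells, which allows a share of up to 0.345%. The CD103- GFP- library had it in 87 of 281 Klrd1 positive cells (31.0%) and in 10 of 1182 Klrd1 negative cells (0.846%). The genes most like Xcl1 over the 1872 cells of that library were Klrd1 (r = 0.38), Nkg7 (0.37), which encodes a granule protein of cytotoxic cells, and Ctla2a (0.37).

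Ccl5 and Xcl1 were found in the same cells. Over all lymphoid gates of the pool 20 cells had both, and Xcl1 was in 19.6% of cells with Ccl5 and in 1.35% of cells without. The CD103- GFP- library had 128 such cells, with 30.1% and 1.94%. In its gamma delta gate, Xcl1 was in 95 of 326 cells with Ccl5 (29.1%, 24.3 to 34.4) and in 0.176% (0.0213 to 0.634) of cells without, at median depths of 6500 and 4469 UMIs. Thinned to equal depth the shares were 15.9% and 0.265%. Within the ILC1 and NK gate of the pool the intervals overlapped, since Xcl1 was in 52.0% of cells with Ccl5 and in 33.3% of cells without.

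Ccl3 and Ccl4, neighbouring genes 13228 bases apart on chromosome 11, were both rare. In the pool, 36 of 58 Ccl3 UMIs were in the Lyz2 gate, which had it in 10 of 35 cells (28.6%, 14.6 to 46.3) at 121 UPM. The ILC1 and NK gate had Ccl3 in 7 of 55 cells at 26.5 UPM, and the gamma delta gate of the CD103- GFP- library in 3 of 1463. Lymphoid gates held 20 Ccl3 UMIs in the pool and 4 in the CD103- GFP- library. Of those 20, 6 lay in the unassigned gate without CD3 genes, in which myeloid transcripts were also seen (below). Ccl4 was mostly lymphoid. The pool had it in 12 of 885 gamma delta gate cells at 13.8 UPM and in 8 of 55 ILC1 and NK gate cells at 77.4 UPM (53.9 to 107.6). The CD103- GFP- library had it in 39 of 1463 gamma delta gate cells at 13.6 UPM and in 10 of 110 alpha beta gate cells (9.09%, 4.45 to 16.1), where 3 cells held 88.2% of 68 UMIs. The alpha beta gate of the pool had it in 0 of 232 cells, which allows a share of up to 1.29%. All 10 alpha beta gate cells with Ccl4 also had Ccl5, against 42.0% of those without Ccl4. Of 11 lymphoid cells of the pool with Ccl3, 5 had Ccl4, 8 had Ccl5 and 5 had Xcl1, against 1.20%, 6.29% and 2.27% of lymphoid cells without Ccl3. Cxcl2 was in 3 of the 11 and Cxcl10 in 1, against 7.69% and 13.2%. The receptor gene Ccr1 was in 4 of the 11, against 2.07%. Of the 11, 7 were ILC1 and NK gate cells, and that gate had Ccl5 in 25 and Xcl1 in 23 of its 55 cells. These contrasts therefore do not part gate from joint detection. A single cell of the stroma and epithelium gate of the CD103- GFP- library held 54 of its 229 Ccl4 UMIs, and 23 of the 24 cells of that gate had an Epcam UMI and 19 a Cd3g UMI.

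Cxcl10 was spread over many gates. The gamma delta gate had it in 63 of 885 cells of the pool (7.12%, 5.51 to 9.02) and in 122 of 1463 of the CD103- GFP- library (8.34%, 6.97 to 9.88). The alpha beta gate had it in 54 of 232 cells of the pool (23.3%, 18.0 to 29.3) and in 16 of 110 of the CD103- GFP- library (14.5%, 8.55 to 22.5). Among innate gates of the pool it was in 14 of 55 ILC1 and NK gate cells (25.5%), 9 of 38 ILC3 gate cells (23.7%) and 24 of 78 Tcf7 and Il18r1 gate cells (30.8%). The ILC2 gate of the ST2+ library had it in 133 of 1250 cells (10.6%, 8.99 to 12.5) at 83.7 UPM. At equal depth the 3 innate shares of the pool were 14.5%, 15.8% and 12.8%, beside 14.3% in its alpha beta gate and 4.08% in its gamma delta gate. The B cell gate of the pool had it in 1 of 24 cells at a median depth of 3364 UMIs, and its Lyz2 gate in 0 of 35, which allows up to 8.57%.

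Interferon response transcripts were higher beside Cxcl10 in some gates of every library and lower in other gates of the pool. The summed level of 8 such genes, among them Isg15 and Ifit1, was 443 UPM in pool gamma delta gate cells with Cxcl10 and 217 UPM in those without. It was 477 UPM and 263 UPM in the gamma delta gate of the CD103- GFP- library, and 224 UPM and 99.3 UPM in the ILC2 gate of the ST2+ library. In each of these gates 7 of 8 genes were higher in cells with Cxcl10. The alpha beta gate of the pool showed a smaller gap, at 314 UPM and 284 UPM with 5 of 8 higher. Other gates of the pool went the opposite way. The list was 195 UPM in cells with Cxcl10 and 401 UPM in those without in the unassigned gate without CD3 genes, with 2 of 8 higher, and 225 UPM and 277 UPM in the unassigned gate with CD3 genes, also with 2 of 8 higher. In the Cldn5 gate it was 246 UPM and 803 UPM with 0 of 8 higher, at median depths of 8806 and 2997 UMIs. Over all lymphoid gates of the pool it was 344 UPM in cells with Cxcl10 and 248 UPM in those without. The immediate early list had no common direction beside Cxcl10. In the gamma delta gate it was 12856 UPM in cells with Cxcl10 and 13773 UPM in those without in the pool, with 5 of 14 genes higher, and 12175 UPM and 10075 UPM in the CD103- GFP- library, with 12 of 14 higher. The genes most like Cxcl10 over the 1655 cells of the pool were Stab2 (r = 0.21), Prr7 (0.20) and Lmna (0.18), all low.

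Cx3cl1 had different sources in 2 libraries. In the pool, 12 of its 15 UMIs were in the Cldn5 gate, which had it in 8 of 71 cells (11.3%, 4.99 to 21) at 31.3 UPM and a median depth of 3646 UMIs. All lymphoid gates of the pool together had it in 2 of 1506 cells (0.133%, 0.0161 to 0.479). In the CD103- GFP- library the ILC3 gate had Cx3cl1 in 14 of 39 cells (35.9%, 21.2 to 52.8) at 147 UPM. The gamma delta gate beside it had 0 of 1463, which allows a share of up to 0.205%. The Tcf7 and Il18r1 gate had it in 7 of 46 cells (15.2%, 6.34 to 28.9). Thinned to 2000 UMIs the ILC3 gate share was 15.4%. The ILC3 gate of the pool had it in 1 of 38 cells (2.63%, 0.0666 to 13.8), so the intervals of the ILC3 gates lay apart and the pool was lower. Of 29 cells with Cx3cl1 in the CD103- GFP- library, 15 had Ccr6 (51.7%), 16 Kit (55.2%), 11 Cd4 (37.9%) and 11 Lta (37.9%). Of the 1843 cells without, 67 had Ccr6 (3.64%), 85 Kit (4.61%), 22 Cd4 (1.19%) and 135 Lta (7.33%). Ccr6 encodes the receptor of Ccl20, Kit the stem cell factor receptor and Lta lymphotoxin alpha. None of the 14 ILC3 gate cells with Cx3cl1 had a Cldn5 or Cdh5 UMI. In the ST2+ library its 14 UMIs were in 14 cells, 12 of them in the ILC2 gate (0.960%).

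**Figure D5:**
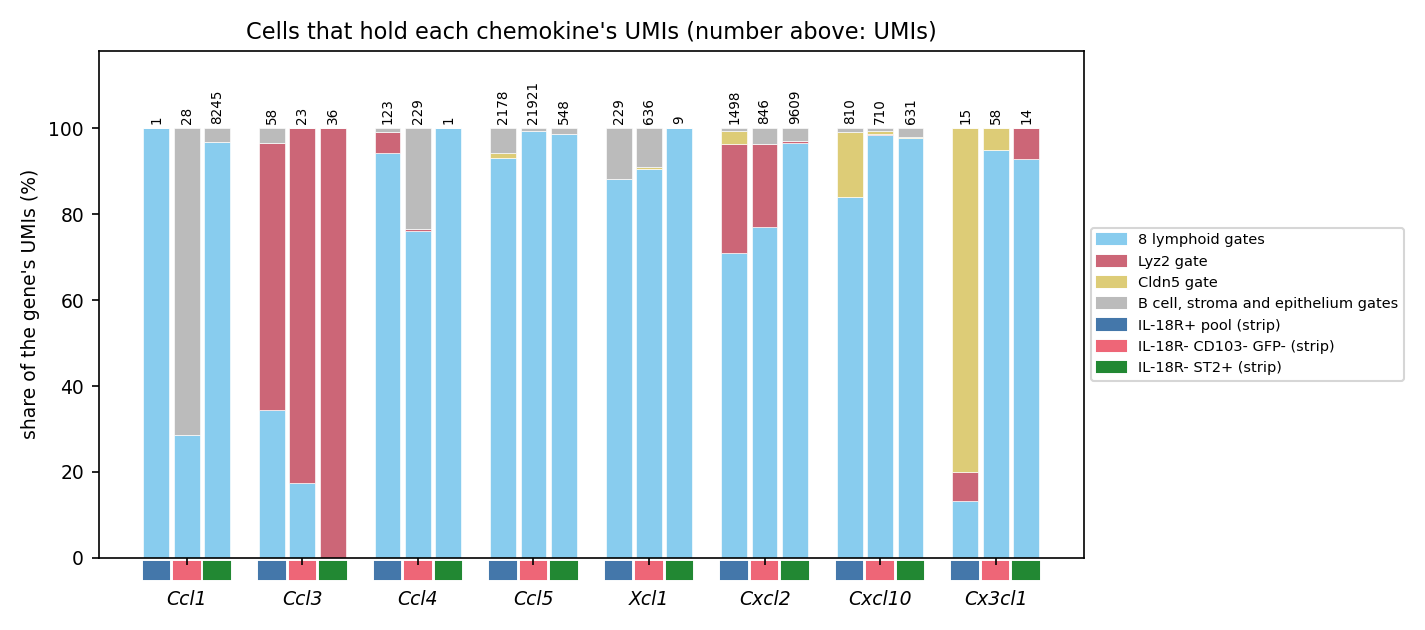
Share of each chemokine gene's UMIs (vertical axis, percent) found in the 8 lymphoid gates, the Lyz2 gate, the Cldn5 gate and the B cell, stroma and epithelium gates together, with 1 bar per library, from left to right the pool, the CD103- GFP- library and the ST2+ library (coloured strip). Numbers above the bars are UMIs. The Lyz2 gate holds 62.1%, 82.6% and 100% of Ccl3, the Cldn5 gate 80.0% of Cx3cl1 in the pool, and the lymphoid gates 96.8% of Ccl1 in the ST2+ library.

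Non-lymphoid cells were set apart. The Lyz2 gate held 62.1%, 82.6% and 100% of Ccl3 UMIs in the pool, the CD103- GFP- library and the ST2+ library. It also held 25.4% of Cxcl2 UMIs in the pool and 19.4% in the CD103- GFP- library, and in the pool Cxcl2 reached 1277 UPM (1152 to 1412) in its 35 cells, 16 of them with a UMI. All 9 further myeloid genes, such as Cd14 and Csf1r, had UMIs in the Lyz2 gate of the pool. Some Cxcl2 outside that gate also sat beside myeloid transcripts. In the pool, 21 of 85 cells without CD3 genes and without an assigned type had Cxcl2 (24.7%) at 954 UPM. Of those 21, S100a8 was seen in 11, S100a9 in 12 and Cd14 in 10, and of the 64 others in 2, 2 and 1. With a revised Lyz2 gate that also took cells with UMIs of at least 2 myeloid genes, chosen after the gates had been seen, Cxcl2 in that unassigned gate was 271 UPM in the pool. The CD103- GFP- library had 530 UPM in it with the revised gates and 908 UPM with the gates as first drawn. In the revised Lyz2 gate of the pool it was 2481 UPM. The ILC3 gate of the pool had Cxcl2 in 9 of 38 cells, with 84.4% of 186 UMIs in 3 cells. The gamma delta gate had it in 49 of 885 cells of the pool (5.54%, 4.12 to 7.25) and in 61 of 1463 of the CD103- GFP- library (4.17%, 3.20 to 5.32). The immediate early list in that gate was 15108 UPM in cells with Cxcl2 and 13617 UPM in those without in the pool, with 7 of 14 genes higher in cells with Cxcl2. It was 15081 UPM and 10042 UPM in the CD103- GFP- library, with 13 of 14 higher.

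The Cldn5 gate held 15.1% of Cxcl10 UMIs in the pool, at 318 UPM (264 to 380) with a UMI in 18 of 71 cells. Endothelial genes marked that gate, with UMIs of all 7 further endothelial genes and at least 1 of them in 81.7% of its cells. The top 3 cells held 66.4% of its Cxcl10, and when at least 2 Cldn5 UMIs were asked for, among the other gate changes, the level was 76.8 UPM in 60 cells. Cx3cl1 in the same comparison was 31.3 UPM with the gate as first drawn and 40.2 UPM with the revised gate. Of the 21 Cldn5 gate cells of the CD103- GFP- library, 9 had a Cd3d UMI, and 15 had a Cdh5 UMI.

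Many cells carried more than 1 member. At least 1 of the 8 transcripts was seen in 27.4% of cells of the pool, 39.6% of the CD103- GFP- library and 73.9% of the ST2+ library, and more than 1 in 5.98%, 11.1% and 35.4%. In the ILC2 gate of the ST2+ library 455 of 1250 cells had more than 1 (36.4%), and in the ILC1 and NK gate of the pool 43.6%. Besides Ccl1 with Cxcl2 and Ccl5 with Xcl1, the most frequent joint detections over lymphoid gates were Cxcl2 with Cxcl10 in 91 cells, Ccl1 with Ccl5 in 78, Ccl1 with Cxcl10 in 77 and Ccl5 with Cxcl2 in 68, all in the ST2+ library. Cxcl10 was in 12.4% (10.1 to 15) of lymphoid cells with Cxcl2 there and in 8.54% (6.72 to 10.7) of those without. Ccl5 was in 10.2% of cells with Ccl1 and 8.0% of cells without, Cxcl10 in 10.0% and 10.7%, and Cxcl2 in 48.2% of cells with Ccl5 and 47.2% of cells without, all with overlapping intervals. In the gamma delta gate of the CD103- GFP- library Cxcl2 was less often seen beside Ccl5, in 2 of 326 cells (0.613%) against 5.19% of cells without Ccl5.

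The receptors of these chemokines were in part expressed by the same libraries. Of 22 receptor genes listed, 11 reached 20 UPM in at least 1 library. Ccr8, the receptor of Ccl1, was at 5.24 UPM in the pool, 1.98 UPM in the CD103- GFP- library and 69.3 UPM in the ST2+ library, the library with most Ccl1. Within its ILC2 gate Ccr8 was in 30.1% of cells with Ccl1 and 27.5% of cells without, with overlapping intervals. Cxcr3, the receptor of Cxcl10, was at 40.9 UPM, 117 UPM and 0.253 UPM in the same order of libraries. In lymphoid cells of the CD103- GFP- library it was in 38.0% of cells with Cxcl10 and 38.3% of cells without. Xcr1, Cxcr2, Cx3cr1, Ccr1 and Ccr3 stayed under 20 UPM in all 3 libraries. Cxcr2 was in 10 cells with Cxcl2 over the lymphoid gates of the pool (8.47%), against 0.576% of cells without Cxcl2. Of those 10 cells, 9 were in the unassigned gate without CD3 genes, where 11 of the 21 cells with Cxcl2 had S100a8, 12 S100a9 and 10 Cd14. Further receptors past 20 UPM were Ccr2 (527, 561 and 455 UPM), Cxcr6 (663, 696 and 575 UPM), Cxcr4 (106, 111 and 63.2 UPM), Ccr6 (53.4, 12.8 and 0.253 UPM), Ccr7 (27.8, 84.3 and 6.46 UPM), Ccr10 (59.9, 2.50 and 0.507 UPM), Ccr9 (15.3, 15.4 and 68.8 UPM) and Ccr4 (21.4, 10.6 and 13.8 UPM). For the pool over the CD103- GFP- library, 3 of 9 measured receptors were higher and 3 lower, against 2.55% and 0.791% of all genes measured. For the pool over the ST2+ library 4 of 10 were higher and 2 lower, against 12.3% and 4.33%. For the CD103- GFP- library over the ST2+ library 3 of 8 were higher and 2 lower, against 9.57% and 5.4%. The receptor list was also chosen with earlier results of these data known.

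Outside the 8 members chemokine transcripts were few. Of 38 other chemokine features, 16 had no UMI in kept cells and 3 reached 20 UPM in a library. Cxcl1, which like Cxcl2 binds Cxcr2, was at 3.46 UPM in the pool, 1.46 UPM in the CD103- GFP- library and 112.6 UPM in the ST2+ library, where 8.38% of cells had it and the ILC2 gate held 67.4% of its UMIs. Its highest library was thus that of Cxcl2. Ccl6 was at 63.9 UPM, 23.3 UPM and 19.4 UPM with at least 89.0% of its UMIs in the Lyz2 gate, and Cxcl15 came from 1 Lyz2 gate cell in the pool and 1 in the ST2+ library.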

How the data were processed

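The study measured gene transcripts of single lymphocytes from mouse lung in 3 libraries of 1 group each. Per the labels' protocols, libraries were made with the 10x Chromium 3' v3.1 kit. Cell Ranger 6.0.1 and genome build mm10 were named by the submitters' processing notes. The annotation version and how barcodes were called are not given in the sources that were used. Per the file headers, the deposited matrices hold whole UMI counts per gene and barcode with no normalisation, for 32285 genes and 5351 barcodes. Reads that Cell Ranger could not place on 1 gene are not counted by that tool, which can lower genes with close relatives.

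Barcodes with under 500 genes, or with over 10% of UMIs from mitochondrial genes, were dropped, which removed 29, 20 and 138 in the pool, the CD103- GFP- library and the ST2+ library. Scrublet in scanpy 1.11.5 marked 26 of 5164 as doublets (0.503%), so doublets are likely to remain, and 5138 cells were kept with 8970571, 9598728 and 7891960 UMIs. No empty droplets were used and free RNA was not removed. Counts were summed per library or gate and divided by the UMIs of the same cells (UPM). Intervals are exact Poisson and Clopper-Pearson intervals. Sums under 3 UMIs were raised to 3 for the 2-fold rule, and shares of cells were repeated with each cell thinned to 2000 UMIs, leaving out 19, 19 and 14 shallower cells. No test was run, because each group is 1 library. The rule and the gates were tested on simulated data.

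Members, gene lists and gates were chosen with earlier results of these data known. Named genes were the 8 members, the 3 genes with the highest Pearson's r to each member seen in at least 100 cells of its highest library (among genes in at least 5% of cells), other chemokines and receptors of at least 20 UPM, and the 6 most frequent joint detections. Markers beside the members were read from fixed lists or, for the Klrd1 split and the revised gates, chosen later. Alternatives were edgeR 4.0.16 TMM and median of ratios scaling, no minimum level, stricter cell filters, omission of gates or of the top cells, and thinning. Python 3.11.15, numpy 2.4.6, scipy 1.17.1, pandas 2.3.3 and matplotlib 3.10.9 were used. Some genes of the lists are not reported here by name.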

Additional observations from a re-analysis of the deposited data

Results flagged for a closer look

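Member transcripts were also present in barcodes that the filter on genes and mitochondrial UMIs had removed, which no comparison used. In the ST2+ library, 162 Ccl1 UMIs lay in 38 of the 138 removed barcodes, a level of 974 UPM (829 to 1136) against 1045 UPM in kept cells. Cxcl2 had 85 UMIs in 29 of those barcodes, or 511 UPM (408 to 632) against 1218 UPM, and Cxcl10 had 9 UMIs in 5, or 54.1 UPM against 80.0 UPM. In the CD103- GFP- library, 29 Ccl5 UMIs lay in 2 of 20 removed barcodes, 1165 UPM against 2284 UPM in kept cells, and 4 Cxcl10 UMIs in 2, 161 UPM against 74.0 UPM. In the pool, 7 Cxcl10 UMIs lay in 1 of 29 removed barcodes, 50.2 UPM against 90.3 UPM. The source of these UMIs was not tested.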

How the results depend on the processing

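Without a minimum level, 5 members rather than 2 were past 2-fold for the pool over the CD103- GFP- library, since Ccl1 and Cx3cl1 then counted as lower and Ccl3 as higher on 1 to 58 UMIs. The other counts of members past 2-fold stayed within 1.5 times of 2, 4 and 5 for the 3 pairs under every alternative run. Some named members did change side: at 1000 genes per cell Ccl4 joined in the first pair, without the 3 cells with most UMIs Cxcl2 joined in the first pair, Xcl1 left the second and Ccl4 left the third, and with lymphoid gates only Ccl4 left the third. Without a minimum level Ccl4 also joined in the second pair and Cx3cl1 in the third. No direction of a member past 2-fold was turned. Of 24 log2 ratios, 15 moved by more than their counting interval without the top 3 cells and 10 with lymphoid gates only. Thinning moved 44 of 184 gate shares and 38 of 91 joint shares, and the revised gates moved 29 of 176 gate levels. No paired analysis was possible because each group is 1 library without a replicate number, and for the same reason no replicate could be left out. Depth limits the rare members: a gene with 3 UMIs in a library stands at 0.334, 0.313 and 0.380 UPM, and Ccl3 and Cx3cl1 rested on at most 58 UMIs.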
